A study of Mus musculus with 3 samples.

Results

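The genes described here encode chromatin remodelers, bromodomain proteins and their relatives in mouse microglia, the resident macrophages of the brain. They were taken as every tabulated symbol that begins with Smarc or Ino80, or with Arid, Chd, Brd or Baz followed by a digit, which gave 52 of 24411 genes. The libraries were made from microglia labelled cKO and Pu.1 inhibitor, of C57BL/6J brain, with an age given as 6 to 8 weeks. In the series design cKO stands for Mir137loxP/loxP;Tmem119-CreERT2 mice, in which daily tamoxifen for 7 days, begun between 7 and 8 weeks, activates a Cre recombinase driven by the microglial gene Tmem119 so as to remove the microRNA gene Mir137. Pu.1 is the product of Spi1, an ETS-family transcription factor needed for macrophage development. All 3 libraries were labelled with both the deletion and the inhibitor treatment and formed 1 group, so no effect of either was estimated. The design text gives 4 mice without tying them to replicates, so the spread between libraries, and every p-value built on it, may be technical rather than between animals. The sources used here name neither the compound nor its dose, nor whether mice or isolated cells received it.

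Remodelers are ATP-driven machines that slide, eject or exchange nucleosomes, and their ATPase motors fall into the SWI/SNF (BAF in mammals), ISWI, CHD and INO80 families. Bromodomains are protein modules that bind acetylated lysines, chiefly on histones, and ARID domains bind DNA. In macrophages BAF complexes are known to open enhancers that Pu.1 and its partners occupy, and BET bromodomain proteins carry transcription of inflammatory genes forward. The symbols also took in relatives that are neither remodelers nor bromodomain proteins, chiefly the Arid3, Arid4 and Arid5 genes. A further 3 entries encode no protein: the antisense transcripts Chd3os and Ino80dos and the pseudogene Smarca5-ps.

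Depth was 17180404 estimated counts in replicate 1, 15710750 in replicate 2 and 16356125 in replicate 3. All 10 homeostatic microglial markers were detected and took 3.03 ± 0.0421% of counts (SD, n = 3). Markers of neutrophils took 0.309 ± 0.013%, those of endothelial cells 0.354 ± 0.00668%, and those of choroid plexus and ependyma 0.835 ± 0.0529% of counts. Monocyte and border macrophage markers took 0.16 ± 0.00215%, astrocyte markers 0.101 ± 0.00689%, oligodendrocyte markers 0.087 ± 0.00742%, neuronal markers 0.00444 ± 0.000295% and lymphocyte markers 0.00198 ± 0.00027% (SD, n = 3 each). Such cells could contribute transcripts of the genes described here, and their part in the levels was not tested. In bulk RNA, fewer cells of a type and less RNA per cell cannot be told apart. Mir137 had 0 counts in each library, as did all 1183 microRNA loci in the table, so its value did not check the deletion. Spi1 had 187, 191 and 182 FPKM in replicates 1, 2 and 3.

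Nearly all of these genes were expressed, within a narrow range of moderate levels. Detection was set at an FPKM (fragments counted per unit of transcript length and of library size) of at least 1 in every library. By this measure 47 of 52 genes (90.4%) were detected, against 47.8% of all genes tabulated, and among protein-coding genes 46 of 49 members, against 55.6% of 19891. The median of log2(FPKM + 1) was 3.68 ± 0.04 over the members and 0.95 ± 0.02 over all genes (SD, n = 3 libraries). Detected members had a median of 12.5 FPKM, close to the 13.1 FPKM of all detected genes. Their lower and upper quartiles were 9.025 and 21.3 FPKM, against 5.53 and 30.2 FPKM in detected genes. Between 5 and 40 FPKM lay 93.6% of detected members, against 59.1% of detected genes. Those bounds were not planned in advance and lie near the members' own values, so the shares are description only. Only Brd2 was above 40 FPKM. Together the 52 genes took 0.376 ± 0.00983% of all counts (SD, n = 3).

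**Figure D1:**
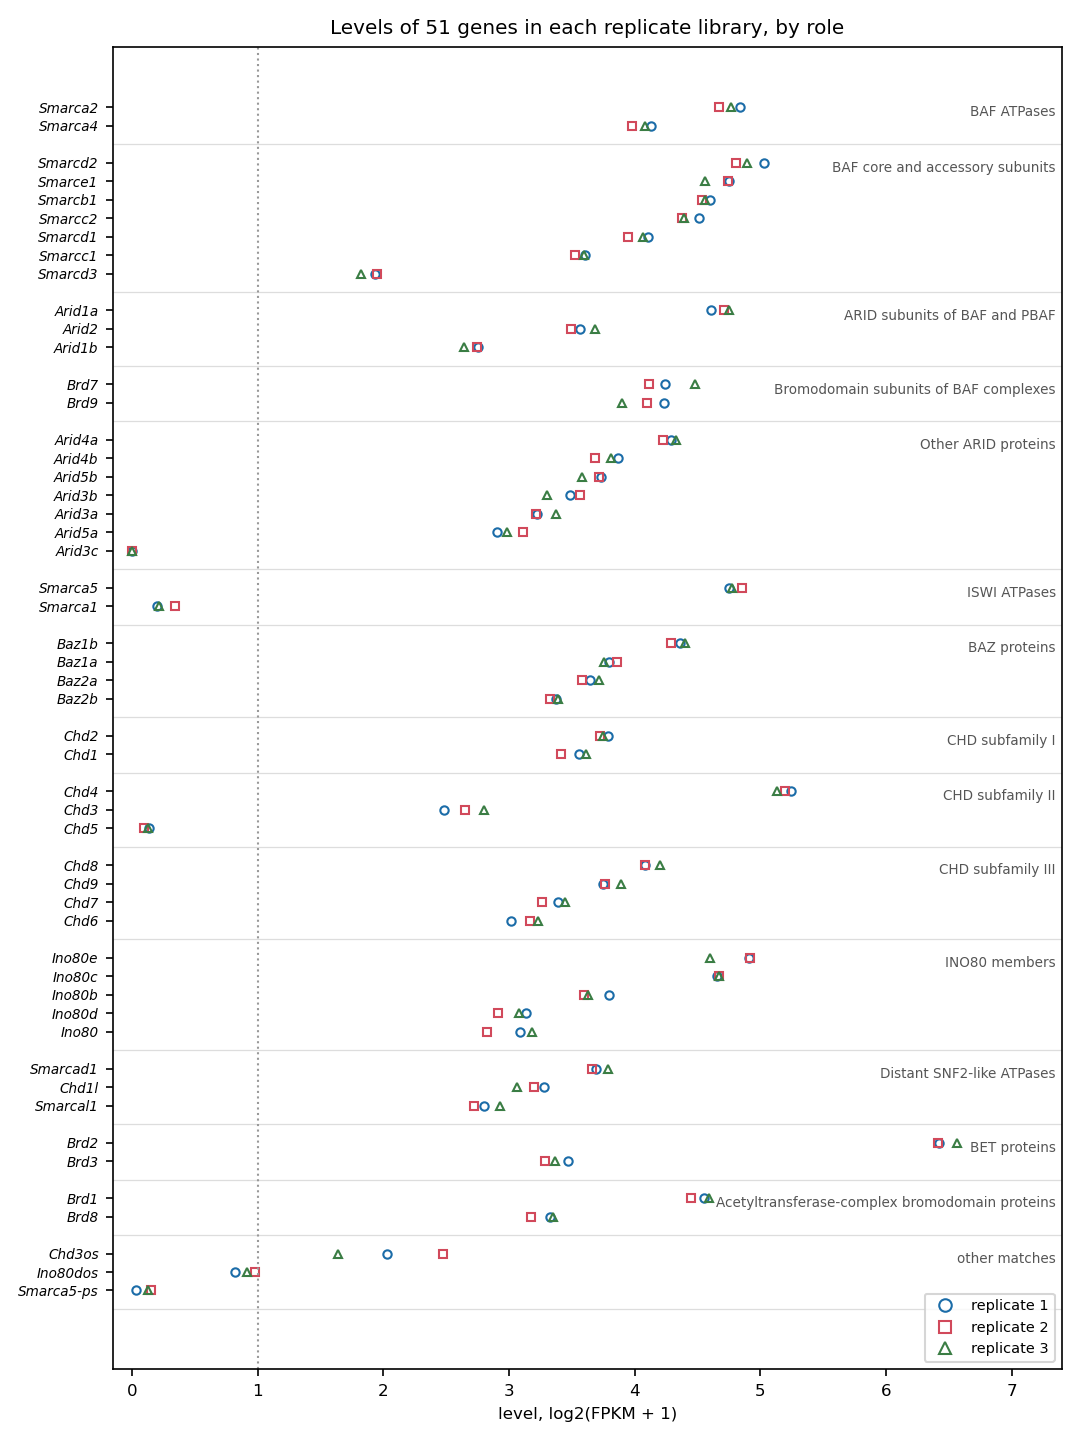
Level of 51 of the genes as log2(FPKM + 1) on the horizontal axis, with 1 row per gene grouped by role and 1 symbol per replicate library. The dotted line marks an FPKM of 1; Brd2 stands highest at 87.5 FPKM on average, and Arid3c, Smarca5-ps, Chd5, Smarca1 and Ino80dos lie at the low end, below the line.

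The motors of the BAF complex were both expressed. Smarca4, which encodes the ATPase BRG1 (GRCm38 chromosome 9, 21616169 to 21704230), had 16.5, 14.8 and 15.9 FPKM in replicates 1, 2 and 3. Its paralog Smarca2, which encodes the alternative ATPase BRM (chromosome 19, 26605050 to 26778322), had 27.7, 24.5 and 26.3 FPKM. The ranges of the paralogs did not overlap, and Smarca4 was lower than Smarca2 in 3 of 3 libraries, with a difference of -0.70 ± 0.01 in log2(FPKM + 1) (SD, n = 3). Smarca4 thus made up 37.6 ± 0.222% of the summed FPKM of the pair (SD, n = 3). The size of that difference depended on transcript length: in CPM (counts scaled to library size by edgeR's TMM factors, with no division by length) it was -0.26, and Smarca2 had an unsettled effective length, as described further on.

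ISWI motors were unlike the BAF pair in that one paralog was close to the limit of detection. Smarca5, encoding the ISWI ATPase SNF2H (chromosome 8, 80698507 to 80739497), had 25.9, 27.9 and 26.3 FPKM. Smarca1, encoding the paralog SNF2L that is best known from neurons (chromosome X, 47809368 to 47892974), had 0.15, 0.27 and 0.16 FPKM, from 10, 16 and 10 counts. Smarca5 made up 99.3 ± 0.214% of the pair (SD, n = 3). The pseudogene Smarca5-ps, with 1, 6 and 5 counts, took up few reads that could have come from Smarca5.

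The bases upstream of the RefSeq starts of these 4 motor genes are shown for comparison of their CG content. Each sequence is the 250 bases before the RefSeq transcription start, from 5′ to 3′ on the gene's strand, with CG pairs in capitals. Smarca4 had 25 CG pairs (GRCm38.p6 chr9:21615919-21616168, plus strand), Smarca2 had 28 (chr19:26604910-26605159, plus strand), Smarca5 had 29 (chr8:80739460-80739709, minus strand) and Smarca1 had 6 (chrX:47892614-47892863, minus strand). The Smarca1 window lies wholly inside the gene as GENCODE M21 places it, downstream of the M21 start, so its CG count is not shown to be that of the promoter in use. The Smarca2 and Smarca5 windows run in part into the gene by M21, past its starts at 26605050 and 80739497.
Smarca4: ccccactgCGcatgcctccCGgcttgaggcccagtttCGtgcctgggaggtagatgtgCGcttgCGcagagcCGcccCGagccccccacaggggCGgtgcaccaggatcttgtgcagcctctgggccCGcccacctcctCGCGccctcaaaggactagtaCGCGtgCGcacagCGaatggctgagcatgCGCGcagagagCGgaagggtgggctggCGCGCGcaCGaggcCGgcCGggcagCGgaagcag
Smarca2: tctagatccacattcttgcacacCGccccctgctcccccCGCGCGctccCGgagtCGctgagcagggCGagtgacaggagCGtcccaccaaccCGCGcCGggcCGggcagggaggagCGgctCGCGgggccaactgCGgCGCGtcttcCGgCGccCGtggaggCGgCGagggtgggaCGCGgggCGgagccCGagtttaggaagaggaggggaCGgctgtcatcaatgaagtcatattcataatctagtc
Smarca5: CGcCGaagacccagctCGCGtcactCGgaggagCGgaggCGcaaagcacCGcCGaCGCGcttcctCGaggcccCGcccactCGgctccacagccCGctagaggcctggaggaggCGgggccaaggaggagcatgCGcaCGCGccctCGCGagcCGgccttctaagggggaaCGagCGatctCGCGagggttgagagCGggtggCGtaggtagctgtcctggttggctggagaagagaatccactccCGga
Smarca1: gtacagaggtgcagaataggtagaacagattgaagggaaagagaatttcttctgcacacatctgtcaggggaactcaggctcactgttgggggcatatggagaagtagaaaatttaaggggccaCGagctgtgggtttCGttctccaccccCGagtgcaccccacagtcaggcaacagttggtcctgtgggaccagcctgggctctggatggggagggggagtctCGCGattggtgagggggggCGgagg

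CG-rich promoters were common among these genes, and too few undetected members had a window to compare them with detected ones. In windows of 300 bases, from 250 before to 50 after the start, the RefSeq table covered 37 of the 52 genes. The 33 detected members had a median of 27 CG pairs and 65.7% GC, against 21 pairs and 60.7% GC in 8999 detected genes, and 7 pairs and 52.8% GC in all 27025 genes with a window. The 4 undetected members with a window had a median of 22.75 CG pairs and spanned 9 to 32.5 (averaged over a gene's starts). The letters GAGGAA, the core of a PU.1 box, stood on either strand in 10 of 48 member windows (20.8%). This compares with 28.3% of all 32851 windows and 27.4% of windows of detected genes. The letters CCGGAA, an ETS core, stood in 14 of 48 (29.2%), against 14.9% of all windows and 27.1% of windows of detected genes. NF-Y boxes, CCAAT, were present in 14 of 48 (29.2%), against 37.4% of all windows and 37.1% of windows of detected genes. E-boxes, CACGTG, were present in 1 of 48 (2.08%), against 7.15% of all windows and 9.91% of windows of detected genes. These matches are descriptions of sequence and overlap between motifs was not removed.

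The scaffold and accessory subunits of BAF were all detected, 7 of 7, at 2.74 to 29.1 FPKM on average. Smarcb1, the core subunit that contacts the nucleosome and is lost in rhabdoid tumours, had 23.2, 22.2 and 22.6 FPKM. Smarce1, an HMG-box subunit, had 25.9, 25.8 and 22.6 FPKM. Of the scaffold paralogs, Smarcc2 averaged 20.5 ± 1.16 FPKM and Smarcc1 10.9 ± 0.347 FPKM (SD, n = 3 each), a ratio of 1.88 ± 0.0811 (SD, n = 3).

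The Smarcd subunits, of which a complex takes 1 form, were graded. Smarcd2, known for its requirement in neutrophil granule formation, had 31.6, 27.0 and 28.8 FPKM and made up 61.5 ± 0.786% of the 3 paralogs (SD, n = 3). Smarcd1 had 16.2, 14.4 and 15.7 FPKM, or 32.6 ± 0.733%. Smarcd3, the form of heart and post-mitotic neurons, had 2.82, 2.87 and 2.54 FPKM, the lowest detected protein-coding member. Smarcd2 exceeded Smarcd1 by 0.87 ± 0.05 and Smarcd3 by 3.01 ± 0.13 in log2(FPKM + 1) (SD, n = 3), with no overlap between any of the 3 genes. Because neutrophil markers were detected in the same libraries at summed levels of 13742 to 15207 FPKM, their part in the Smarcd2 level was not tested.

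Subunits that set the type of BAF complex were all present. Arid2, which with Pbrm1, Phf10 and Brd7 defines the PBAF form, had 10.8, 10.2 and 11.9 FPKM. Arid1a (chromosome 4, 133679008 to 133756769) and Arid1b, the mutually exclusive large subunits of canonical BAF, averaged 24.8 ± 1.32 and 5.56 ± 0.277 FPKM (SD, n = 3 each). Arid2 made up 26.5 ± 1.41%, Arid1a 60.0 ± 1.35% and Arid1b 13.5 ± 1.15% of the 3 genes (SD, n = 3). Arid1a was 4.48 ± 0.442 times Arid1b, and Arid2 0.442 ± 0.0306 times Arid1a (SD, n = 3).

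The bromodomain subunits Brd9, of the non-canonical BAF form, and Brd7, of PBAF, could not be ordered. Brd9 had 17.8, 16.1 and 13.9 FPKM and Brd7 17.9, 16.3 and 21.4 FPKM in replicates 1, 2 and 3. Their values were nearly equal in replicates 1 and 2 and apart in replicate 3, where Brd9 was lowest and Brd7 highest. The difference of -0.20 ± 0.33 in log2(FPKM + 1) (SD, n = 3) was smaller than its spread, and without replicate 3 it was -0.01.

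Outside the listed symbols, partner subunits of BAF were mostly detected, while 3 of the forms known from neurons were at or near 0. Of 17 further BAF genes found, 12 were detected, the 3 highest being Actb at 1508 ± 26.0, Ss18 at 41.0 ± 1.43 and Dpf2 at 28.2 ± 1.56 FPKM (SD, n = 3). Of these, Actl6b had 0, 0.20 and 0, Dpf1 0.09, 0.19 and 0, and Dpf3 0.09, 0.11 and 0.21 FPKM, where their counterparts Actl6a and Phf10 averaged 23.4 and 23.0 FPKM. Bcl11b was the lowest at 0.0467 FPKM. Ss18l1, which is also known as a neuronal form, was detected, at 2.98 ± 0.281 FPKM, against 41.0 for Ss18 (SD, n = 3). Neuronal markers were low in the same libraries, with 3 of 10 detected, summed levels of 19.4 to 22.2 FPKM, and the neurofilament gene Nefl at 0.

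**Figure D2:**
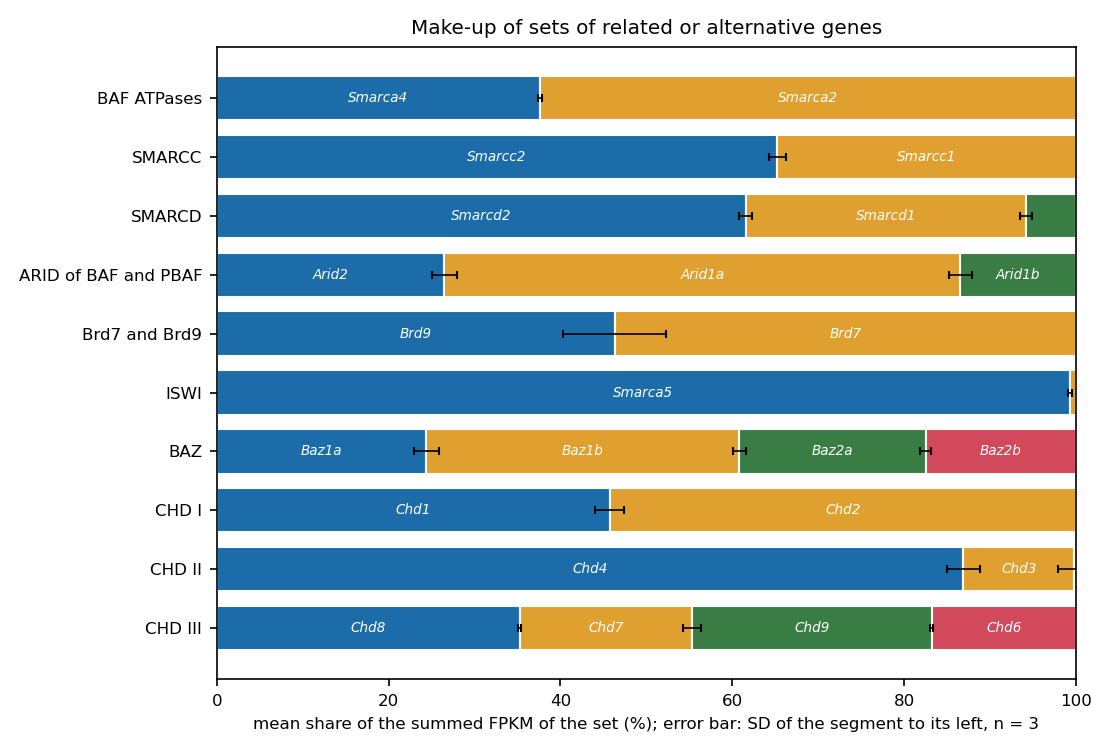
Mean share of each gene in the summed FPKM of its set, in percent on the horizontal axis, with 1 bar per set (the unlabelled segments are Smarcd3, Smarca1 and Chd5); an error bar is the SD over 3 libraries of the segment to its left. Smarca5 fills 99.3% of the ISWI pair and Chd4 86.9% of CHD subfamily II, whereas Brd9 and Brd7 divide their pair with an SD of 5.96 percentage points.

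Among the proteins that carry an ARID domain outside BAF, 6 of 7 were detected, between 7.01 and 18.4 FPKM on average. Arid4a and Arid4b, subunits of the SIN3 histone deacetylase complex, averaged 18.4 ± 0.684 and 12.8 ± 0.895 FPKM (SD, n = 3 each). Arid3a, which encodes the B-cell factor Bright, and its paralog Arid3b averaged 8.64 ± 0.61 and 9.95 ± 1.01 FPKM and overlapped. Arid3a was lower than Arid3b in replicates 1 and 2 and higher in replicate 3. Arid5a, an RNA-binding protein known to stabilise Il6 mRNA, had 6.47, 7.64 and 6.91 FPKM, below the 12.3, 12.2 and 10.9 FPKM of Arid5b, a partner of the histone demethylase Phf2. Arid3c had 0 counts in all 3 libraries, which allows up to 0.175, 0.191 and 0.183 CPM in replicates 1, 2 and 3 (3 counts per library, counting error only).

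CHD remodelers, which carry chromodomains, were led by Chd4. Chd4, the main ATPase of the NuRD deacetylase complex (chromosome 6, 125095981 to 125130591), had 37.0, 35.6 and 34.1 FPKM and ranked second of the 52 genes. Its paralog Chd3 had 4.58, 5.28 and 5.96 FPKM. Chd5, the paralog of neurons and testis, had 0.10, 0.07 and 0.09 FPKM from 16, 10 and 14 counts. Chd4 made up 86.9 ± 1.91% and Chd3 12.9 ± 1.92% of the summed FPKM of the 3 (SD, n = 3). Chd4 was 6.85 ± 1.17 times Chd3 (SD, n = 3), a ratio with a wide spread because Chd4 was highest and Chd3 lowest in replicate 1, and the reverse in replicate 3. All 12 listed NuRD partners were detected, from Cdk2ap1 at 85.3 ± 3.11, Mbd2 at 56.8 ± 1.98 and Mta2 at 54.2 ± 3.03 down to Mta3 at 14.7 ± 1.28 FPKM (SD, n = 3).

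The CHD genes of subfamilies I and III averaged 7.81 to 16.4 FPKM. Chd1, which reads the methylated histone tail of active genes, had 10.7, 9.63 and 11.2 FPKM, against 12.8, 12.2 and 12.4 FPKM for Chd2. Chd2 counts were not whole numbers (1929.79, 1687.9 and 1788.23), as when reads are divided with another gene, and an exon of Chd2 overlaps 1810026B05Rik on the same strand. In subfamily III, Chd8, a regulator mutated in autism, averaged 16.4 ± 0.852 FPKM and Chd7, the gene of CHARGE syndrome, 9.32 ± 0.661 FPKM (SD, n = 3 each). Chd9 and Chd6 averaged 13.0 ± 0.796 and 7.81 ± 0.67 FPKM (SD, n = 3 each). The ratio of Chd8 to Chd7 was 1.76 ± 0.086 and that of Chd9 to Chd6 1.66 ± 0.0909 (SD, n = 3), without overlap in either pair.

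The BAZ proteins, bromodomain partners of the ISWI motors, were all detected. Baz1a, the ACF1 subunit, averaged 13.0 ± 0.507 FPKM and Baz1b, the Williams syndrome factor, 19.4 ± 0.775 FPKM (SD, n = 3 each). Baz2a, which silences ribosomal RNA genes, averaged 11.5 ± 0.582 FPKM and Baz2b 9.30 ± 0.253 FPKM (SD, n = 3 each). Of 7 further ISWI partners 6 were detected, with Rbbp7 at 51.2 ± 3.35, Rbbp4 at 50.3 ± 3.02 and Chrac1 at 41.4 ± 3.27 FPKM highest and Cecr2 at 0.913 ± 0.0586 FPKM undetected (SD, n = 3).

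Of the INO80 complex, which evicts and repositions nucleosomes and acts in DNA repair, 5 of 5 members were detected. The small subunits Ino80b, Ino80c and Ino80e were above the motor in FPKM, but in CPM only Ino80c was. Ino80e had 28.98, 29.2 and 23.2 FPKM, Ino80c 24.2, 24.5 and 24.4 FPKM, and Ino80b 12.9, 11.1 and 11.4 FPKM. The ATPase gene Ino80 (chromosome 2, 119373042 to 119477687) had 7.52, 6.08 and 8.08 FPKM and Ino80d 7.80, 6.54 and 7.46 FPKM, both lowest in replicate 2. In CPM the motor averaged 43.4, against 22.0 for Ino80e and 8.93 for Ino80b, and Ino80d was highest: at an effective length of 13226 nt it averaged 96.1 CPM, where Ino80e has 810 nt. Ino80e counts were not whole and its exons overlap Doc2a and Hirip3 on the opposite strand, so its value is uncertain. All 10 listed INO80 partners were detected, from Yy1 at 46.6 ± 1.84, Actl6a at 23.4 ± 1.29 and Mcrs1 at 21.7 ± 2.71 down to Tfpt at 5.02 ± 0.185 FPKM (SD, n = 3).

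Distant relatives of the SNF2 motor, which act mainly at damaged or replicating DNA, were all detected. Smarcad1 averaged 12.1 ± 0.591, the poly(ADP-ribose)-activated remodeler Chd1l 8.09 ± 0.685, and the annealing helicase Smarcal1 6.05 ± 0.506 FPKM (SD, n = 3). Of 12 other SNF2 helicases 9 were detected, led by Hltf at 24.97 ± 0.82, Atrx at 17.9 ± 1.71 and Btaf1 at 13.7 ± 0.993 FPKM, while Rad54l was lowest at 0.447 ± 0.136 FPKM (SD, n = 3). The 15 listed subunits of the SRCAP and TIP60 complexes were all detected, led by Morf4l1 at 228 ± 4.18, Kat5 at 32.0 ± 3.23 and Epc1 at 31.8 ± 0.467 FPKM, with Mrgbp lowest at 3.74 ± 1.30 FPKM (SD, n = 3).

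BET proteins, which bind acetylated histones with paired bromodomains and are the targets of compounds such as JQ1, included the most abundant gene of all 52. Brd2 (chromosome 17, 34112023 to 34122634) had 84.8, 84.2 and 93.7 FPKM. Brd3 had 10.1, 8.74 and 9.28 FPKM. Brd2 was 9.38 ± 0.861 times Brd3 (SD, n = 3), with no overlap between the libraries of the pair. Brd2 exons overlap H2-DMa on the opposite strand, but its counts were whole numbers in all 3 libraries. Of the P-TEFb and BET partners 7 of 7 found were detected, with Cdk9 at 36.7 ± 1.23, Whsc1l1 at 27.2 ± 0.65 and Hexim1 at 24.4 ± 0.0889 FPKM highest and Larp7 at 10.5 ± 0.576 FPKM lowest (SD, n = 3).

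The remaining bromodomain members belong to acetyltransferase complexes. Brd1, a scaffold of the HBO1 complex, had 22.5, 20.8 and 23.1 FPKM, and Brd8, of the TIP60 complex, had 9.03, 8.02 and 9.21 FPKM. Of 25 bromodomain genes with other symbols 22 were detected. The highest were Trim28 at 67.1 ± 1.59, Zmynd11 at 32.2 ± 1.43 and the acetyltransferase Ep300 at 24.3 ± 2.37 FPKM, and Trim66 was lowest at 0.107 ± 0.0666 FPKM (SD, n = 3).

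Across all 29 gene pairs compared within libraries, the first-named gene was higher in 3 of 3 libraries in 20 and lower in 3 of 3 in 8. Arid3a against Arid3b changed direction between libraries. Sign flips of the within-library differences (exact permutation test, two-sided) gave p = 0.25 for the 28 pairs of one direction, the smallest that 3 libraries allow (0.259 after Benjamini-Hochberg adjustment over the 29), so no pair could pass 0.05. Only 2 pairs overlapped in FPKM between their genes, Brd9 with Brd7 and Arid3a with Arid3b. Placed in 1 order by mean FPKM, however, neighbours were mostly not separate: 41 of 51 neighbouring genes overlapped. The separate steps included those below Brd2, below Chd4 and below Chd3.

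**Figure D3:**
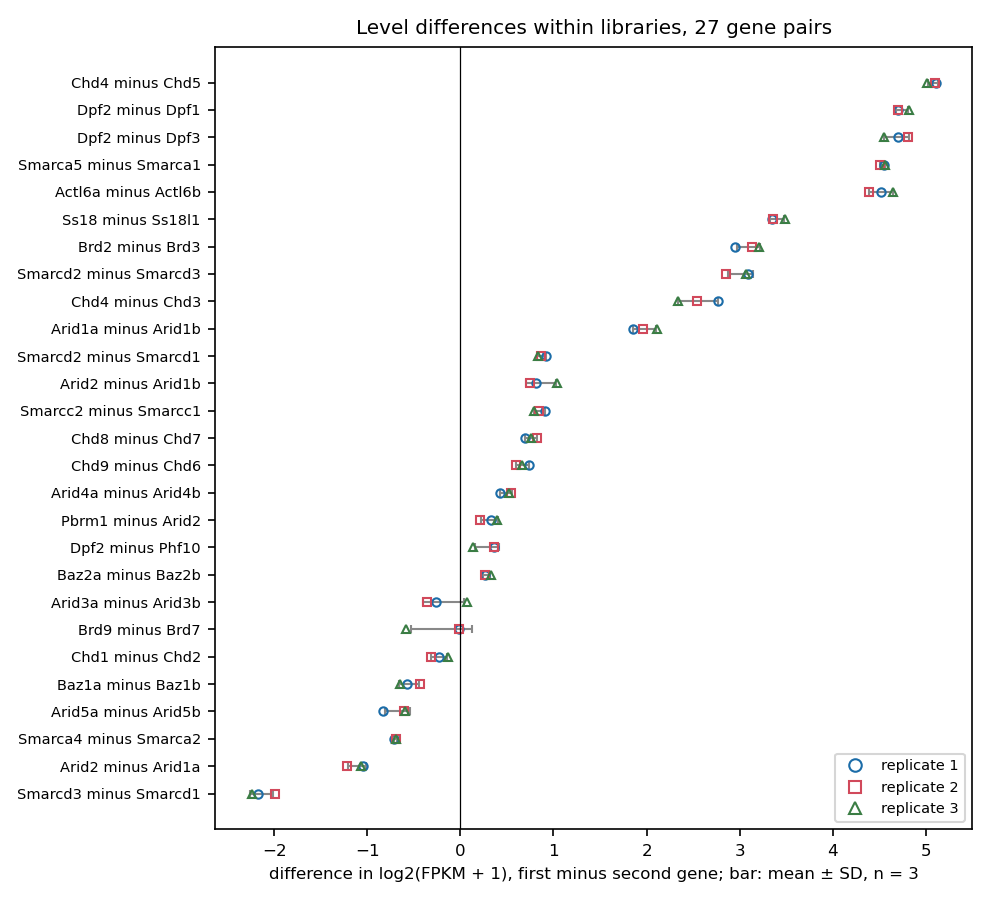
Difference in log2(FPKM + 1) between the first and second gene of each of 27 pairs within each library (symbols), with mean ± SD over 3 libraries (bars). The largest is Chd4 minus Chd5 at 5.07, and Brd9 minus Brd7 and Arid3a minus Arid3b reach or cross 0 within their spread.

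These genes have long transcripts. The ratio of counts to FPKM gave the effective length (annotated length less what a fragment occupies) in each library. Detected members had a median effective length of 5087 nt, against 2521 nt for all detected genes, and 34 of 47 (72.3%) exceeded 4000 nt, against 24.0%. The range ran from 757 nt in Ino80b to 13226 nt in Ino80d. For 389 genes with a single GENCODE M21 transcript the annotated length exceeded the effective length by a median of 285 nt. With that offset, 26 of 46 detected protein-coding members lay within 150 nt of their longest annotated coding transcript, 14 were shorter and 6 longer. Smarcal1 was among the longer, at 6436 nt where its longest coding transcript has 3059 nt and its longest transcript of any kind 4003 nt. The authors' annotation, which is not given in the sources used here, therefore held a transcript of Smarcal1 that M21 does not.

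An effective length that moves between libraries means that the estimated mixture of transcripts moved, since a single transcript keeps its length. The coefficient of variation between libraries was under 0.5% for 40 of 47 detected members, with a median of 0.0511%. It was above 0.5% in 7 genes (14.9%), against 11.01% of detected genes with at least 300 counts. The members were not held to that minimum, which Smarcd3 and Chd3os did not reach. Smarca2 had the widest spread, with 4110, 4580 and 4562 nt in replicates 1, 2 and 3 (6.03%). Others above that bound were Smarcad1 (1.62%), Arid4b (0.78%), Brd8 (0.707%), Arid5a (0.685%) and Arid3a (0.65%).

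For Smarca2 this changed which library appeared highest. In FPKM replicate 1 was highest at 27.7, whereas in CPM replicate 3 was, at 120 against 114 and 112 in replicates 1 and 2. M21 annotates full-length coding transcripts of up to 5921 nt and, of 27 coding transcripts in all, 20 that start more than 140000 nt inside the gene. The 4 of these that reach the end of the gene have 1841 to 2333 nt, with coding lengths of 708 to 834 nt, against 4749 nt in the 5921 nt transcript. If Smarca2 reads came only from a mixture of the 5921 nt form with a form of 2333 or of 1841 nt, the long form would account for 66.0 ± 7.42% or 70.1 ± 6.53% of transcripts (SD, n = 3), or 17.2 ± 1.26 or 18.3 ± 1.03 FPKM. Smarca4 stood at 15.7 ± 0.87 FPKM (SD, n = 3). With the 2333 nt form, replicate 1 would hold 15.9 FPKM of long Smarca2, against 16.5 FPKM of Smarca4 in the same library, and with the 1841 nt form 17.3 FPKM. The choice of a mixture of 2 lengths was made after the values were seen, and transcripts were not measured singly. The lengths are those of M21, which may not be those in the authors' annotation, and other lengths would change these shares.

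**Figure D4:**
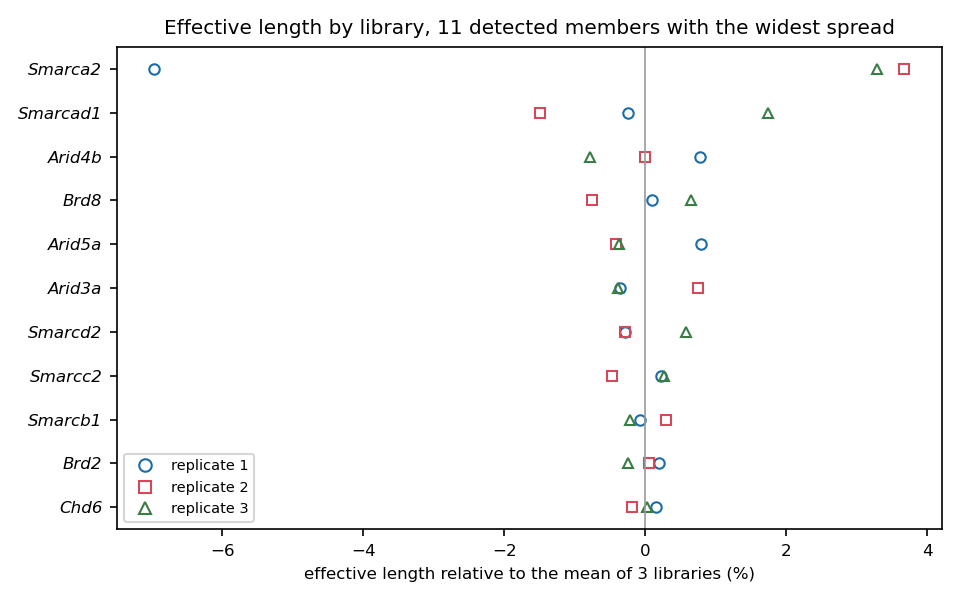
Effective length in each library relative to the gene's mean over 3 libraries, in percent on the horizontal axis, for 11 detected members with a wide spread (symbols are replicates). Smarca2 in replicate 1, at 4110 nt, lies to the left of the other 2 libraries, at 4580 and 4562 nt.

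The spread between replicates was then compared with counting error. Of the 52 genes, 49 passed edgeR's filter on low counts, the exceptions being Arid3c, Smarca1 and Smarca5-ps. Testing each gene's 3 counts for homogeneity by chi-square, with Benjamini-Hochberg adjustment over 13246 genes, found differences between libraries beyond counting error in 25 of 49 members (51%), against 41.4% of all genes tested and 46.1% of 3368 genes longer than 4000 nt. This test compares libraries, not conditions. With a library left out, which gives the test fewer samples, the counts fell for members and for all genes. Without replicate 2, 11 of 49 members passed, against 2498 of 13409 genes. Without replicate 3 it was 13 of 49, against 3155 of 13433, and without replicate 1 it was 18 of 49, against 3780 of 13383. None of the 25 genes passed in all 3 of these settings. The differences were small, with a median ratio of highest to lowest CPM of 1.13 over the members and 1.17 over all genes tested. The median biological coefficient of variation from edgeR was 6.35% in members, against 8.66% in all genes and 6.52% in 3081 genes of similar CPM.

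In that chi-square test Brd2 gave the smallest Benjamini-Hochberg adjusted p of the members, 9.22e-08. It had 352, 350 and 387 CPM in replicates 1, 2 and 3, replicate 3 standing above the other 2. Brd2 also had the most counts of the members, and p in this test falls with counts as well as with the size of a difference. Ino80 followed (adjusted p = 1.29e-05) with 45.2, 36.6 and 48.5 CPM and Ino80d (adjusted p = 5.82e-05) with 103, 86.6 and 98.6 CPM, both lowest in replicate 2. Brd7 (adjusted p = 6.55e-05) had 37.4, 34.0 and 44.6 CPM. Chd3 (adjusted p = 0.000255) and its antisense entry Chd3os (adjusted p = 0.000134) ran in different orders, at 32.1, 37.0 and 41.6 CPM for Chd3 and 4.60, 6.82 and 3.17 CPM for Chd3os. Strandedness was not recorded and Chd3os had no coordinates, so an overlap of the pair was not tested. Among members of at least 10 CPM edgeR's biological coefficient of variation, which is moderated across genes, was lowest in Chd4 (5.12%), Brd2 (5.19%) and Arid1a (5.25%). It was highest in Ino80e (9.50%), Chd1l (9.08%) and Brd9 (8.16%). The 3 lowest values belong to the 3 members of highest CPM. The order differed in an unlike measure, the SD of FPKM in percent of its mean, which is not moderated and includes counting error. That SD was 0.69% of the mean in Ino80c, against 6.09% in Brd2, 8.47% in Chd1l and 14.3% in Ino80.

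Library differences of the members followed a trend with length that was present across the transcriptome. Replicate 2 was the lowest library in CPM for 27 of 49 members, against 35.4% of all genes tested. Among genes over 4000 nt it was lowest for 22 of 35 members, against 52.9% of 3368 genes. In genes over 6000 nt replicate 2 deviated from the mean over libraries by -0.06 log2 units in the 19 members and by -0.06 in all 1264 genes, whereas in genes under 1000 nt it deviated by 0.09 in all 1574. Replicate 3 ran the other way, at 0.07 in the 19 members and 0.05 in all genes over 6000 nt. A smooth length trend was then taken out of the expected counts, an alternative chosen after the data were seen. In that setting 20 of 49 members passed, 16 of them among the 25. Of all 13246 genes tested 4791 passed, against 5485 before the trend was taken out.

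**Figure D5:**
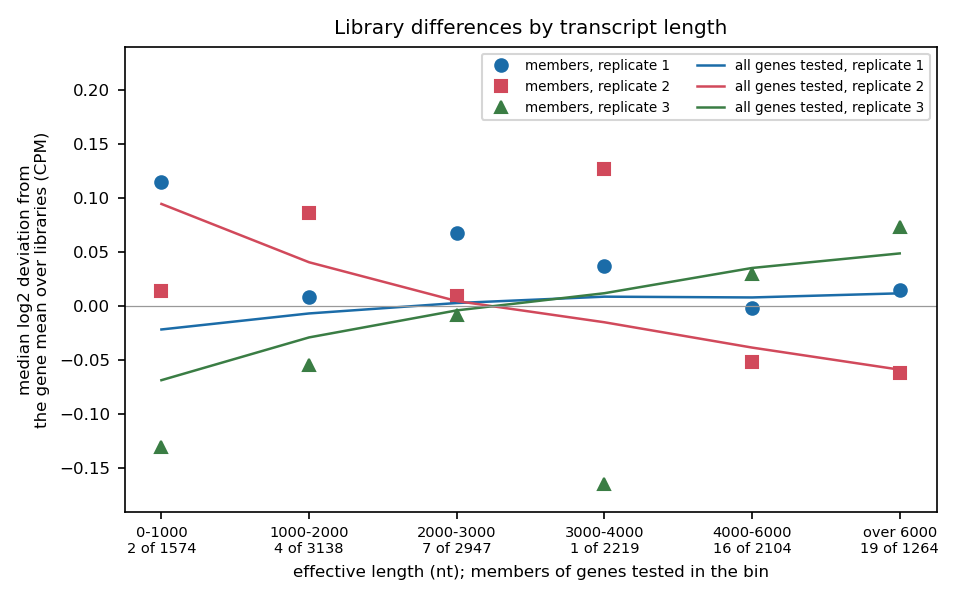
Median log2 deviation of CPM from the gene's mean over 3 libraries, by bin of effective length in nt, for members (symbols) and for all genes tested (lines), with the number of each under the axis. Replicate 2 falls and replicate 3 rises with length; bins under 4000 nt hold 1 to 7 members each.

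Because Mir137 is the gene targeted in these mice, the 3′ untranslated regions of the members were searched for the seed match of miR-137. The mature miR-137-3p is shown with its seed, bases 2 to 8, in capitals (RefSeq, GRCm38.p6 chromosome 3, 118433901 to 118433923), followed by the first match in the 3 of the matching members with the highest FPKM, with the 7 matching bases, AGCAATA, in capitals.
miR-137-3p: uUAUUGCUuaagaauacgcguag
Brd1: tagaacactttggtAGCAATAg
Chd9: acagatcaaaactcAGCAATAa
Baz1a: agatacgtgtataaAGCAATAa
In the longest coding M21 transcript of each gene, 6 of 46 detected members (13.0%) held a match, against 10.2% of 11038 detected genes. The others were Arid4b, Baz2a and Chd7, and Chd9 held 2 matches. Matches per kilobase were 0.0843 in the members and 0.0705 in detected genes. The 6 genes had a median of 12.9 FPKM and the 40 without a match 12.3 FPKM. No library with an intact Mir137 gene was analysed here, and the values hold no comparison with and without the microRNA.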

How the data were processed

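The data were 3 RNA sequencing libraries of 1 group, for which the authors deposited gene-level estimated counts and FPKM. The tools and builds listed per the submitters' processing notes are RSEM, STAR 2.7.9a, DESeq2, GRCm38 and mm10, with no settings, annotation or strandedness recorded in the sources used here. Between libraries the deposited estimated counts carry no normalisation, and 4.07% are not whole. The deposited FPKM divide counts by library size and effective length.

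Members, lists and pairs were chosen with earlier results of these data known. Named were the members, both genes of each pair, and the 3 highest and 1 lowest of each partner list by mean FPKM. Bicra, Bicral and Nsd3 were found under the older symbols Gltscr1, Gltscr1l and Whsc1l1. Levels used log2(FPKM + 1), a pseudocount of 1. Counts were rounded, filtered and TMM-normalised with edgeR 4.0.16 (R 4.3.3). A chi-square test over all genes, checked on simulated data, and edgeR dispersions measured spread, with DESeq2 1.42.0 size factors and dispersions as alternatives. Effective length was the count divided by FPKM and library total, in nt. Coordinates are 1-based, from GENCODE M21 (GRCm38), where 51 of 52 members were placed. Promoters and miR-137 came from RefSeq, 3′ untranslated regions from M21. The floor of 3 counts covers counting error only. One member stays in the counts, medians and pair totals, but its own values are not reported here.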

Additional observations from a re-analysis of the deposited data

How the results depend on the processing

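No paired analysis was possible because the 3 libraries form 1 group. The number of members detected was within 1.5 times of 47 at FPKM thresholds of 0.5 and 5 and with each replicate left out. The median level of members, 3.68 in log2(FPKM + 1), was 3.58 with a pseudocount of 0.1, 3.73 over members passing the filter, 4.51 after conversion to TPM and 5.94 with TMM-normalised CPM, each by construction on another scale or set of genes. Leaving out a replicate gave 3.67 to 3.71. The share of counts, 0.376%, was 0.34% without Brd2 and 0.372 to 0.381% with a replicate left out. Of 145 recomputed pair differences 144 kept their direction, but their sizes often changed. With TMM-normalised CPM 23 of 29 differences moved by at least their SD between libraries, 5 did not and 1 reversed. With a pseudocount of 0.1, 10 moved by that much and 19 did not. With a replicate left out none did, though these settings reuse the same libraries. Arid3a minus Arid3b was 0.31 with TMM-normalised CPM, which does not divide by length. The members whose counts differed between libraries numbered 11 to 18 with a replicate left out, and all genes 2498 to 3780, against 25 and 5485 with all 3, where fewer libraries give the test fewer samples. Under DESeq2 size factors they numbered 25 of 49, against 5483 of 13246 genes, and with library totals 26 of 49, against 5501 of 13246. With no filter they numbered 24 of 51, against 6415 of 16966 genes. The median coefficient of variation of members, 6.35%, was 5.54 to 7.41% with a replicate left out and 7.07% with DESeq2 dispersions; the cause was not tested. Depth limits Chd5, Smarca1 and Smarca5-ps, with at most 16 counts in a library.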
